A study of Mus musculus with 41 samples.

Results

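The 100 transcripts described are those whose share of the library was highest, relative to untreated cells, after 2 h of α-amanitin in wild-type (WT) mouse embryonic stem cells (ESCs). They were picked from 10407 genes, out of 51410 genes counted in all. Each count was divided by its library total and scaled to 1000000 counts per library (CPM). Genes with a mean of at least 5 CPM in the 4 WT 2 h libraries were kept, Hox, Zfp, predicted Gm, ribosomal protein, mitochondrially encoded and histone symbols were dropped, and the rest were ranked by the log2 ratio of mean WT 2 h to mean WT 0 h CPM, with 0.5 CPM added to both. The 100 highest ratios ran between 1.04 and 5.2, with a median of 1.44, against a median of -0.0943 over the 10407 genes. The WT 2 h and WT 0 h libraries therefore chose the members and are given as a description without a test. The name filter removed 6 genes that would otherwise have ranked within the 100, namely Gm15564, Gm10800, Gm26982, Gm23935, mt-Rnr2 and Gm37194.

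The study followed RNA in R1 ESCs, an established mouse line, and in Caprin1 knockout (KO) cells. CAPRIN1 is a cytoplasmic RNA-binding protein of stress granules. All cells spent 4 days in ESC medium with 1 µM retinoic acid and no LIF, which otherwise keeps ESCs undifferentiated. α-Amanitin, a mushroom toxin that blocks RNA polymerase II, was then added at 2 µg/ml for 0, 2, 4 or 8 h. The groups are KO clone 2 with 2 libraries at each of the 4 times, KO clone 4 with 1 library at 0 h and 2 at each later time, and WT with 4 libraries at each time, 31 libraries in all. Each KO line is a single clone, so the effect of the knockout and that of the clone cannot be told apart. Nothing in the labels says that replicates came from separate cultures, so p-values measure the spread between these samples, which may be technical.

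Caprin1 itself averaged 130 ± 27.0 CPM in clone 2 (SD, n = 8) and 1061 ± 78.9 CPM in clone 4 (n = 7), against 1028 ± 107 CPM in WT (n = 16). The transcript was thus at the WT level in the libraries labelled KO clone 4, and that line is named here by its label alone. RNA counts do not show whether the protein was present, so the label could not be checked. Library totals ran between 3.46 M and 31.6 M counts, and depth differed by time. At 0 h they ran between 3.95 M and 31.6 M, and at 2 h between 6.36 M and 8.37 M. At 4 h they ran between 3.46 M and 10.2 M, and at 8 h between 7.24 M and 10.6 M. The 4 h libraries stood apart in their ribosomal protein transcripts, which took 0.942% to 1.12% of each of the 8 libraries, against 2.18% to 2.97% in the libraries of the other times. Each time was deposited as a table of its own, so time and table cannot be told apart. Pou5f1, the defining pluripotency factor, was present at 0 h at 138 to 146 CPM in clone 2, 107 CPM in clone 4 and 74.4 to 108 CPM in WT. Endoderm was represented in every line. Marker sums here and below are ranges over the libraries of all 4 times. The 30 primitive and parietal endoderm markers summed to between 73847 and 84797 CPM in clone 2. Their sum was between 32549 and 40309.5 CPM in clone 4 and between 22182 and 27293 CPM in WT. The 25 neuroectoderm markers summed to between 515 and 552 CPM in clone 2, between 1597 and 2306 CPM in clone 4 and between 1499.9 and 2473 CPM in WT. In bulk RNA a change in the number of cells of a type and a change of RNA per cell cannot be told apart.

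CPM is a share of the RNA that remained. A transcript that rose and one that was lost more slowly than the rest cannot be told apart here, since no internal standard was among the files used. Higher and lower refer to that share.

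Immediate early genes are the first genes a cell transcribes after growth factors, stress or calcium entry, from factors already present in the cell. Kinases of the MAP kinase cascade activate ternary complex factors, which sit with serum response factor (SRF) on CArG boxes in the promoter, while CREB on cyclic AMP response elements (CREs) relays calcium and cyclic AMP. Their messenger RNAs are short-lived, many of their products are transcription factors, and others are phosphatases and adaptors that shut the same cascade down. Of 36 immediate early genes listed from textbook knowledge, 17 were among the 100 members (Atf3, Dusp1, Dusp4, Dusp5, Dusp6, Egr1, Egr2, Egr3, Fos, Fosb, Fosl2, Gadd45g, Junb, Klf6, Maff, Nr4a1 and Spry2). All gene lists were chosen with earlier results of these data known, so the overlap is a description. The lists of pluripotency, retinoic acid response, neuroectoderm and endoderm genes held none, like most of the other lists. In that order, 28, 22, 16 and 27 of their genes met the level and name rule, against 34 of the immediate early list. As 100 of 10407 genes were members, none is near what lists of that size would hold at that share. By what their products do, the members were sorted into 27 transcription factors, 11 feedback inhibitors of signalling and 16 ligands, receptors and matrix proteins. A further 10 were muscle and cytoskeleton proteins and 32 were others. The remaining 4 transcripts were set apart because their values scattered together between libraries. This sorting was made with the members known.

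A RefSeq promoter (GRCm38.p6, 250 bases before to 50 bases after the start site) was at hand for 77 of the 100 members, 14 of them with more than 1 start site. A CArG box on either strand stood in at least 1 promoter of 6 of the 77 (7.79%), against 1.54% of the 8308 promoter-bearing genes that met the level and name rule and 1.81% of all 27025 genes with a promoter in the table. The 6 were Egr2, Dusp5, Tbc1d9, Fhl2, Srf and Rnd3. The CRE, searched as TGACGTCA on both strands, stood in 6 of 77 (7.79%), against 3.78% of the genes that met the rule and 2.03% of all genes, and the 6 were Maff, Dusp8, Dusp1, Plk2, Slc25a25 and Ing3. The EGR motif GCGNGGGCG was found in 15 of 77 (19.5%), against 13.7% and 6.27%, and the AP-1 motif TGANTCA in 9 of 77 (11.7%), against 5.61% and 8.97%. No match of one of these motifs contains a match of another by its letters, and a match is a stretch of letters, not a measured site. The next 6 stretches are printed because they carry the CArG box or CRE (in capitals) of members whose values follow. They are the 150 bases before the start site, 5′ to 3′ on the gene's strand.

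Egr2, chr10:67537719-67537868, plus strand: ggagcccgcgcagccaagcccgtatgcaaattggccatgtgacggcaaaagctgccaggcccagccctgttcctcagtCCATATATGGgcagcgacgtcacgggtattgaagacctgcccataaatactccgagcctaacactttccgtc

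Srf, chr17:46556163-46556312, minus strand: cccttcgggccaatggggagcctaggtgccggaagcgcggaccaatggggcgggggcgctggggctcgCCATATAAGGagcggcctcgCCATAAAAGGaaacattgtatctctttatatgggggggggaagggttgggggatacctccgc

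Dusp5, chr19:53528995-53529144, plus strand: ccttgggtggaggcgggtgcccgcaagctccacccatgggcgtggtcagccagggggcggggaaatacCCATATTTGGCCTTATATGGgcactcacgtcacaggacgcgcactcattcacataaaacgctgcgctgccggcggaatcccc

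Rnd3, chr2:51149112-51149261, minus strand: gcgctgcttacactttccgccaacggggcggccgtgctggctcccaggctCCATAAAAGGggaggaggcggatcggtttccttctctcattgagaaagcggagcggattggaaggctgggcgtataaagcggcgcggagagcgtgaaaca

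Maff, chr15:79347370-79347519, plus strand: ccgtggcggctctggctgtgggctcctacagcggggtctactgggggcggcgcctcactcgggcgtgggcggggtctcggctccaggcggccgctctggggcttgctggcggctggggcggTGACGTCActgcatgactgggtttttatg

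Plk2, chr13:110394894-110395043, plus strand: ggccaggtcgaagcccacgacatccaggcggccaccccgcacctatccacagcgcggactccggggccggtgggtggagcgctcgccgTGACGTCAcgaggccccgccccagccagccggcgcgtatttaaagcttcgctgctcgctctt

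Both Srf and Dusp5 carry a pair of CArG boxes. The pair begins 82 and 62 bases before the start site in Srf and 82 and 72 bases before it in Dusp5, where the boxes abut and form 1 run of capitals. The box of Egr2 begins 72 bases before the start site shown, which is 1 of several in the table. The CRE of Maff begins 29 bases and that of Plk2 62 bases before theirs.

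The pattern over time was shared by nearly all members. In clone 2 the median log2 ratio to 0 h was 0.83 at 2 h, 0.89 after 4 h and -0.09 after 8 h, and 33 members were highest at 2 h, 61 at 4 h, 4 at 8 h and 2 at 0 h (of the 10407 genes, 9.09% were highest at 2 h and 24.8% at 4 h). In clone 4 it was 1.09, 1.09 and 0.53, with 52 members highest at 2 h, 45 at 4 h and 3 at 8 h (16.9% and 23.2% of the 10407 genes at 2 and 4 h). In WT it was 1.44, 1.53 and 0.41. There the mean level was highest at 2 h for 40 members and at 4 h for 60, while of the 10407 genes 5.41% were highest at 2 h and 24% at 4 h. The choice of members favours a high 2 h level and a low 0 h level in WT, so these WT values are a description. In WT, 99 of the 100 members had every 2 h library above every 0 h library, as the choice favours (8.03% of the 10407 genes did). The exception was Rn7sk, 1 of the 4 scattered transcripts.

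**Figure D1:**
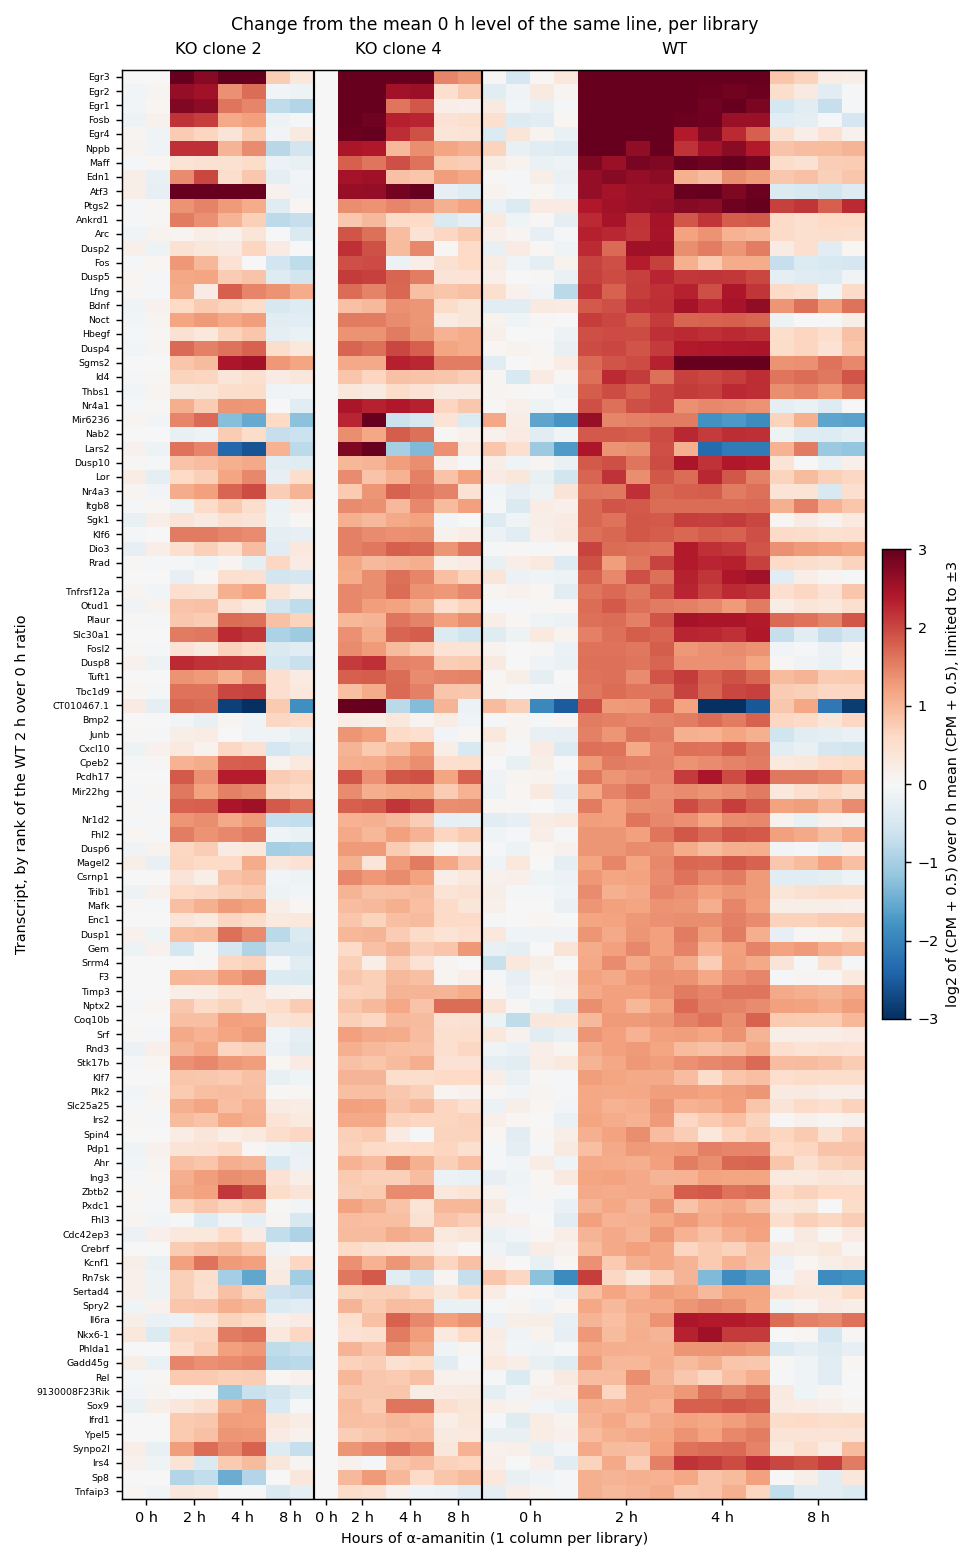
Heat map of the 100 transcripts (rows, by rank) in the 31 libraries (columns, by line and hours of α-amanitin); colour gives the log2 ratio of CPM + 0.5 to the mean 0 h level of the same line, limited to ±3. Most rows are red at 2 and 4 h in all 3 lines and pale at 8 h, and the rows of Mir6236, Lars2, CT010467.1 and Rn7sk differ between libraries of one group.

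The KO clones took no part in the choice, so their 2 h libraries were tested against their own 0 h libraries with edgeR's quasi-likelihood test. Genes with a false discovery rate (FDR, by the Benjamini-Hochberg method over the 15850 genes tested) under 0.05 count as called, and errors of log2 fold changes are standard errors (SE). In clone 2, 72 of the 100 members rose, where 6.04% of all genes tested did, and 1, Sp8, fell, where 5.81% of all genes did. The median log2 fold change of the members was 0.94, against -0.034 over all genes. In clone 4, 89 members rose, where 3.57% of all genes did, and none fell, where 2.75% of all genes did; 92 of the 100 members had an unadjusted p under 0.05 there and DESeq2 also called no member lower. The median was 1.19, against -0.0038 over all genes. The clone 4 comparison rests on a single 0 h library, which is assumed to vary like the other groups. Leaving out 1 library at a time, the members that rose numbered 60 to 68 in clone 2 and 80 to 84 in clone 4.

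The transcription factors led the ranking. EGR3, a zinc finger factor of the EGR family, is encoded by the highest-ranked member. In clone 2, Egr3 stood at 1.17 and 1.22 CPM at 0 h, 13.0 and 10.7 CPM at 2 h, 13.7 and 14.4 CPM at 4 h and 2.34 and 1.61 CPM at 8 h. In clone 4 it stood at 0.616 CPM at 0 h, 46.4 and 41.4 CPM at 2 h, 15.4 and 21.3 CPM at 4 h and 2.56 and 2.32 CPM at 8 h. In WT it stood at 0.759, 0.361, 0.749 and 1.01 CPM at 0 h, 41.4, 35.3, 54.4 and 46.0 CPM at 2 h, 22.1, 22.5, 24.5 and 20.7 CPM at 4 h and 1.66, 1.43, 0.919 and 0.909 CPM at 8 h. The 2 h libraries of clone 4 lay within the WT range and those of clone 2 below every one of them, while at 0 h no library of any line was above 1.22 CPM. Egr3 rose in both clones, by a log2 fold change of 3.36 ± 0.24 in clone 2 (FDR 7.46e-13, edgeR) and 6.17 ± 0.32 in clone 4 (FDR 1.88e-16, edgeR).

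Egr1, which encodes the founding member of the family, stood in clone 2 at 6.97 and 7.74 CPM at 0 h, 53.6 and 49.6 CPM at 2 h, 23.4 and 21.3 CPM at 4 h and 4.12 and 3.79 CPM at 8 h. In clone 4 the values were 14.8 CPM at 0 h, 222 and 198 CPM at 2 h, 46.3 and 55.0 CPM at 4 h and 16.9 and 16.6 CPM at 8 h. In WT they were 18.2, 14.1, 12.7 and 14.6 CPM at 0 h, 212, 186, 212 and 212 CPM at 2 h, 128, 114, 132 and 108 CPM at 4 h and 10.2, 11.8, 9.06 and 14.7 CPM at 8 h. All lines were highest at 2 h, clone 2 lay below both other lines at every time, and Egr1 rose at 2 h by 2.88 ± 0.14 in clone 2 and by 3.87 ± 0.17 in clone 4. Egr2, whose CArG box is printed above, held 4.30 and 3.94 CPM at 2 h and 0.222 and 0.318 CPM at 0 h in clone 2. It held 15.1 and 14.1 CPM at 2 h and 0.821 CPM at 0 h in clone 4. In WT it held 7.47, 8.11, 9.43 and 7.69 CPM at 2 h and 0, 0.0902, 0.264 and 0.169 CPM at 0 h. Its rise passed the test in clone 2 (3.99 ± 0.33) and in clone 4 (4.17 ± 0.30). Egr4, the remaining family member, was at 0.597 and 0.509 CPM at 2 h and 0.190 and 0.106 CPM at 0 h in clone 2, and its difference there was not called (FDR 0.0679, edgeR). In clone 4 it was at 3.70 and 5.04 CPM at 2 h, against 0.0513 CPM at 0 h, which is 1 count.

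The AP-1 factors FOS, FOSB, FOSL2 and JUNB bind DNA as FOS and JUN pairs. Fos stood in clone 2 at 3.74 and 4.08 CPM at 0 h, 10.4 and 8.27 CPM at 2 h, 5.45 and 3.93 CPM at 4 h and 2.45 and 2.08 CPM at 8 h. Clone 4 had 5.95 CPM at 0 h, 24.1 and 24.6 CPM at 2 h, 5.17 and 6.95 CPM at 4 h and 8.42 and 9.26 CPM at 8 h. WT had 11.1, 8.84, 7.67 and 10.3 CPM at 0 h, 40.3, 37.4, 50.2 and 40.7 CPM at 2 h, 20.6, 16.8, 21.2 and 20.9 CPM at 4 h and 5.66, 7.02, 6.82 and 6.59 CPM at 8 h. Fos was highest at 2 h in each line, and its 2 h and 0 h libraries did not overlap. The choice of members favours this in WT, and clone 4 had 1 library at 0 h. In clone 4 the 4 h libraries of Fos were already back beside that library. Fosb rose by 2.62 ± 0.24 in clone 2 and by 3.62 ± 0.27 in clone 4. Junb rose by 1.33 ± 0.15 in clone 4, while in clone 2 its libraries at 52.4 and 54.2 CPM at 2 h and 48.1 and 45.2 CPM at 0 h did not differ by enough to be called (FDR 0.200, edgeR).

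Atf3, which encodes a stress-induced bZIP repressor, rose further in clone 2 than in clone 4. It stood in clone 2 at 17.1 and 12.3 CPM at 0 h, 210.0 and 184 CPM at 2 h, 329.5 and 325 CPM at 4 h and 16.1 and 13.5 CPM at 8 h. In clone 4, Atf3 was at 25.5 CPM at 0 h, 158 and 162 CPM at 2 h, 189 and 206 CPM at 4 h and 21.4 and 19.6 CPM at 8 h. In WT it stood at 29.1, 26.3, 27.9 and 24.5 CPM at 0 h, 169, 154, 166 and 166 CPM at 2 h, 212, 254, 192 and 211 CPM at 4 h and 20.0, 19.6, 18.2 and 20.7 CPM at 8 h. Clone 2 was the lowest line at 0 h and the highest at 2 and 4 h, and every line was higher at 4 h than at 2 h. The rise at 2 h was 3.78 ± 0.11 in clone 2 and 2.69 ± 0.14 in clone 4. Atf3 is also a target of the integrated stress response, a programme that follows from blocked translation initiation. Of the 25 genes of that list that were tested, 4 rose and 3 fell in clone 2, where 6.04% and 5.81% of all genes did. In clone 4, 4 rose and 1 fell, where 3.57% and 2.75% of all genes did. Ddit4 fell in both clones.

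Among the 27 transcription factors, 22 rose and 1 fell in clone 2 at 2 h, where 6.04% and 5.81% of all genes did. Of the 27, 26 rose in clone 4 at 2 h, where 3.57% of all genes did. Klf6, a zinc finger factor, held 732 and 731 CPM at 2 h and 243 and 251 CPM at 0 h in clone 2. It held 852 and 794 CPM at 2 h and 298 CPM at 0 h in clone 4. Maff, a small MAF factor, held 21.3 and 22.1 CPM at 2 h and 15.3 and 16.4 CPM at 0 h in clone 2. In clone 4 it held 64.2 and 56.4 CPM at 2 h and 18.3 CPM at 0 h. In WT it was at 83.3, 70.4, 85.2 and 82.2 CPM at 2 h and 13.4, 12.4, 9.92 and 10.3 CPM at 0 h. Klf6 rose by 1.63 ± 0.11 in clone 2 and 1.5 ± 0.14 in clone 4, a difference between clones that was not called (FDR 0.878, edgeR), while Maff rose by 0.51 ± 0.13 in clone 2 and 1.76 ± 0.14 in clone 4. Srf, whose product binds CArG boxes and which carries a pair of them, rose by 1.16 ± 0.13 in clone 2 and 1.22 ± 0.16 in clone 4. Of the 27 genes on a list of actin genes and SRF targets, 7 rose in each clone. Of all genes tested, 6.04% rose in clone 2 and 3.57% in clone 4. Sp8, a zinc finger factor of limb and brain development, was the single member that fell: it held 7.53 and 8.39 CPM at 2 h and 14.5 and 14.2 CPM at 0 h in clone 2, where its log2 fold change was -0.79 ± 0.19. Without the first 2 h library of clone 2 no member was called lower.

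Feedback inhibitors rose in 9 of 11 cases in clone 2 (where 6.04% of all genes rose) and 11 of 11 in clone 4 (3.57%). They hold the dual-specificity phosphatases, which remove phosphate from MAP kinases, Spry2, an antagonist of receptor tyrosine kinases, Trib1, a pseudokinase, Nab2, a co-repressor of EGR proteins, and Tnfaip3, an inhibitor of NF-κB. Dusp4 stood in clone 2 at 10.9 and 12.4 CPM at 0 h, 39.1 and 34 CPM at 2 h, 37.0 and 41.1 CPM at 4 h and 16.9 and 14.6 CPM at 8 h. Clone 4 had 49.4 CPM at 0 h, 166 and 155 CPM at 2 h, 200.3 and 172 CPM at 4 h and 112 and 108 CPM at 8 h. In WT it stood at 50.3, 52.7, 49.8 and 41.3 CPM at 0 h, 189, 195, 181 and 209.8 CPM at 2 h, 253, 259, 261 and 267 CPM at 4 h and 71.3, 76.4, 66.0 and 87.1 CPM at 8 h. Its level was lower in clone 2 than in the other lines at every time, with no overlap, yet it rose by 1.72 ± 0.13 there and by 1.74 ± 0.13 in clone 4. Dusp8 was the phosphatase gene with the largest rise in clone 2, 2.29 ± 0.11, and rose by 2.23 ± 0.15 in clone 4. Nab2 held 10.2 and 10.8 CPM at 2 h and 12.2 and 11.8 CPM at 0 h in clone 2, a difference that was not called (FDR 0.664, edgeR). It held 42.4 and 36.5 CPM at 2 h and 16.0 CPM at 0 h in clone 4, where it rose by 1.35 ± 0.16.

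**Figure D2:**
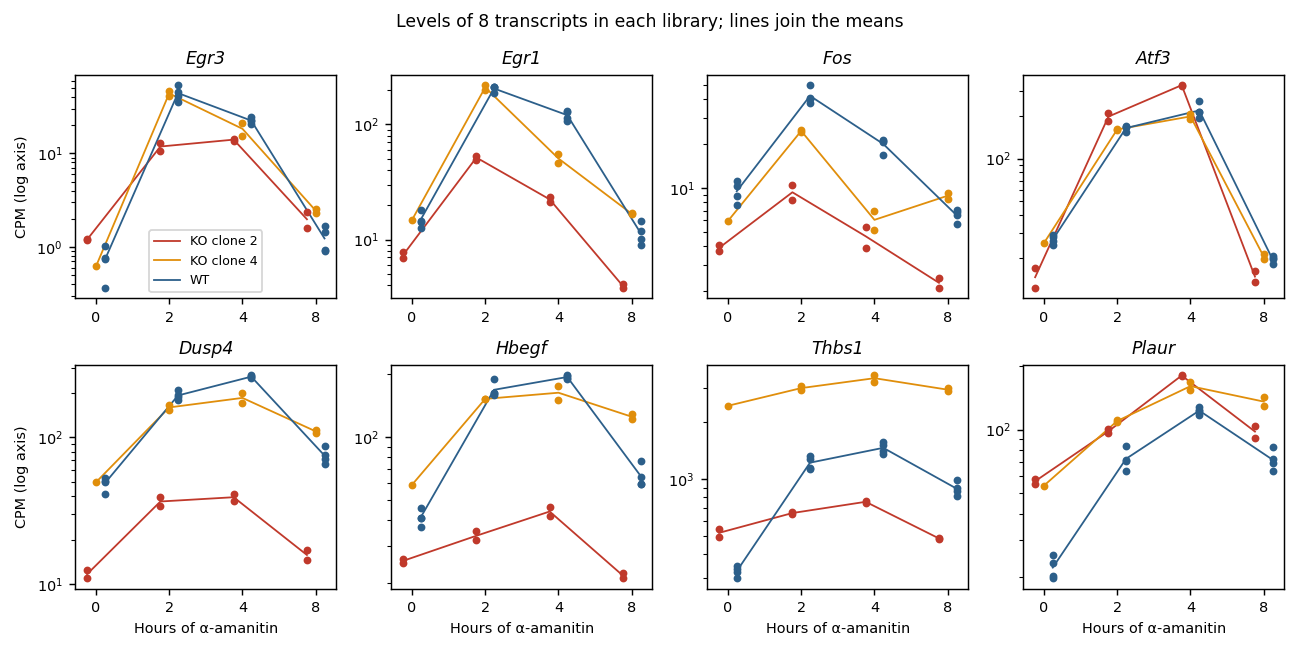
CPM of 8 members in each library (points, log axis) by hours of α-amanitin, with lines through the group means of KO clone 2, KO clone 4 and WT. Egr3, Egr1 and Fos peak at 2 h in clone 4 and WT, Atf3 peaks at 4 h in all lines, and Thbs1 is at 2425 CPM or more in every clone 4 library.

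Ligands, receptors and matrix genes rose in 12 of 16 cases in clone 2, where 6.04% of all genes did. Of the 16, 15 rose in clone 4, where 3.57% of all genes did. Hbegf, which encodes a ligand of the epidermal growth factor receptor, held in clone 2 25.2 and 26.1 CPM at 0 h, 35.5 and 32 CPM at 2 h, 41.8 and 46.4 CPM at 4 h and 21.1 and 22.4 CPM at 8 h. Clone 4 held 59.1 CPM at 0 h, 152 and 152 CPM at 2 h, 174 and 151 CPM at 4 h and 122 and 128 CPM at 8 h. In WT it held 46.0, 41.1, 41.2 and 37.0 CPM at 0 h, 158, 162, 162 and 189 CPM at 2 h, 198, 190.5, 195 and 189.6 CPM at 4 h and 59.8, 64.4, 59.8 and 77.0 CPM at 8 h. It stayed well above its 0 h level at 8 h in clone 4, and was back at or below it in clone 2. Edn1, the gene of the vasoconstrictor endothelin-1, held 2.51 and 4.07 CPM at 2 h and 0.792 and 0.477 CPM at 0 h in clone 2. It held 54.7 and 57.2 CPM at 2 h and 9.34 CPM at 0 h in clone 4, and 66.6, 70.7, 67.1 and 68.4 CPM at 2 h and 10.6, 9.87, 11.8 and 8.93 CPM at 0 h in WT. It rose by 2.32 ± 0.29 in clone 2 and 2.62 ± 0.17 in clone 4, although its level in clone 2 was far below that of the other lines. Bmp2, a ligand of the TGF-β superfamily, was called in neither clone. Its levels were 57.1 and 52.3 CPM at 2 h and 60.6 and 61.1 CPM at 0 h in clone 2, and 30.9 and 30.1 CPM at 2 h and 26.6 CPM at 0 h in clone 4. In WT they were 57.3, 55.5, 53.3 and 54.9 CPM at 2 h and 18.2, 20.2, 18.3 and 19.8 CPM at 0 h. These did not overlap, as the choice of members favours. The log2 fold change of Bmp2 was -0.10 ± 0.10 in clone 2 and 0.24 ± 0.13 in clone 4. Thbs1, the matrix protein thrombospondin-1, held 656 and 666 CPM at 2 h and 492 and 548 CPM at 0 h in clone 2. It held 3084 and 2928 CPM at 2 h and 2425 CPM at 0 h in clone 4, and 1144, 1277, 1134 and 1312 CPM at 2 h and 347, 335, 325 and 299 CPM at 0 h in WT. Its level in clone 4 was above that of both other lines at either time, and its log2 fold change there, 0.35 ± 0.11, was the smallest of the 89 called.

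Muscle and cytoskeleton genes rose in 6 of 10 cases in clone 2, where 6.04% of all genes did. Of the 10, 9 rose in clone 4, where 3.57% of all genes did. Ankrd1, a cardiac ankyrin repeat protein and a known SRF and YAP target, held 12.8 and 11.1 CPM at 2 h and 3.86 and 4.08 CPM at 0 h in clone 2. It held 48.4 and 54.1 CPM at 2 h and 27.3 CPM at 0 h in clone 4. Arc, a neuronal cytoskeleton-associated protein, held 2.51 and 2.80 CPM at 2 h and 2.15 and 2.55 CPM at 0 h in clone 2, which was not called (FDR 0.613, edgeR). It held 13.0 and 10.8 CPM at 2 h and 3.13 CPM at 0 h in clone 4. Rnd3, a small GTP-binding protein that opposes actomyosin contraction, rose by 1.18 ± 0.11 in clone 2 and 1.07 ± 0.12 in clone 4. Against the same shares of all genes, the 32 others rose in 23 cases in clone 2 and 28 in clone 4. They include Ptgs2, the inducible cyclooxygenase, which rose by 1.49 ± 0.16 in clone 2 and 1.42 ± 0.18 in clone 4. Noct, a circadian phosphatase related to deadenylases, rose by 1.31 ± 0.09 and 1.59 ± 0.11. Plk2, a p53 target kinase with a CRE in its promoter, rose by 0.91 ± 0.08 and 0.94 ± 0.09.

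Across all 36 listed immediate early genes, members and others together, 25 rose and 3 fell in clone 2, where 6.04% and 5.81% of all genes did. In clone 4, 28 rose and 1 fell, where 3.57% and 2.75% of all genes did. Jun, the partner of FOS and no member, rose by 1.60 ± 0.09 in clone 2 and by 0.86 ± 0.11 in clone 4. Myc rose by 1.91 ± 0.15 in clone 2 and 1.09 ± 0.14 in clone 4. Socs3, a feedback inhibitor of cytokine receptors, went the other way, with -2.31 ± 0.14 in clone 2 and -1.97 ± 0.15 in clone 4.

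**Figure D3:**
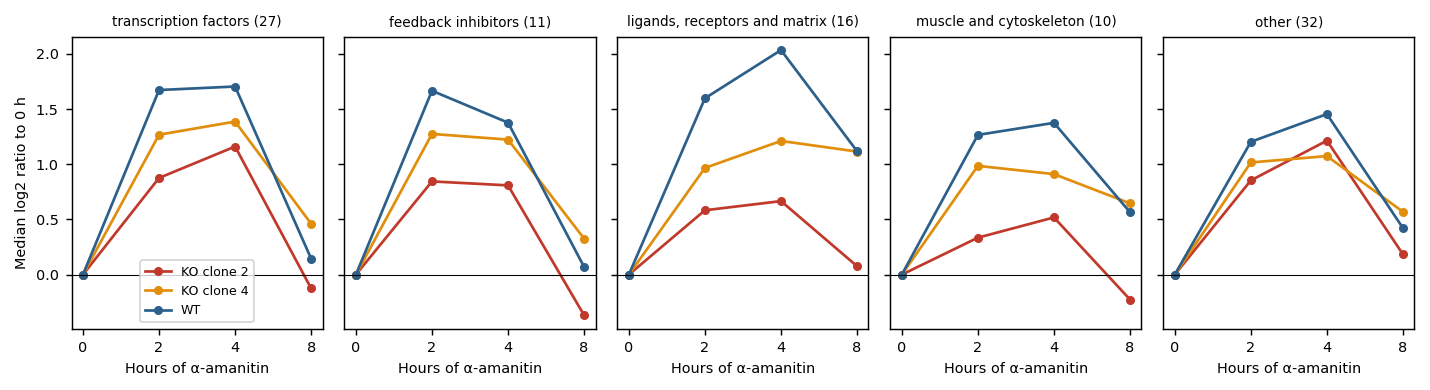
Median log2 ratio of CPM + 0.5 to the 0 h mean of the same line, by hours of α-amanitin, for the members of each role (number in brackets; the 4 scattered transcripts are left out). In WT the ligands, receptors and matrix genes reach 2.04 at 4 h and keep 1.12 at 8 h, while the transcription factors are at 0.14 at 8 h.

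The clones differed from each other in the 2 h change of some members. The difference of the 2 h change between the clones, tested as an interaction, was called for 15 members. For 14 of them the log2 change was lower in clone 2 than in clone 4, as for 0.208% of all genes. It was higher for Atf3, as for 0.177% of all genes. The log2 difference, clone 2 minus clone 4, was -2.81 ± 0.48 for Egr3, -2.02 ± 0.29 for Sp8, -1.72 ± 0.33 for Arc and -1.49 ± 0.22 for Nab2. The FDR was 8.14e-04 for Egr3 (edgeR). The difference was 1.09 ± 0.17 for Atf3. Transcription factors made up 10 of the 15. Nr4a1, an orphan nuclear receptor, shows the pattern in its libraries: it held 22.9 and 18.2 CPM at 2 h and 10.2 and 10.9 CPM at 0 h in clone 2. It held 52.3 and 47.2 CPM at 2 h and 9.13 CPM at 0 h in clone 4. At 0 h the clone 4 library was just below those of clone 2, and at 2 h the libraries of clone 4 were all above those of clone 2. The single 0 h library of clone 4 enters every one of these differences. Leaving out 1 of the other libraries left 11 or 12 members lower.

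**Figure D4:**
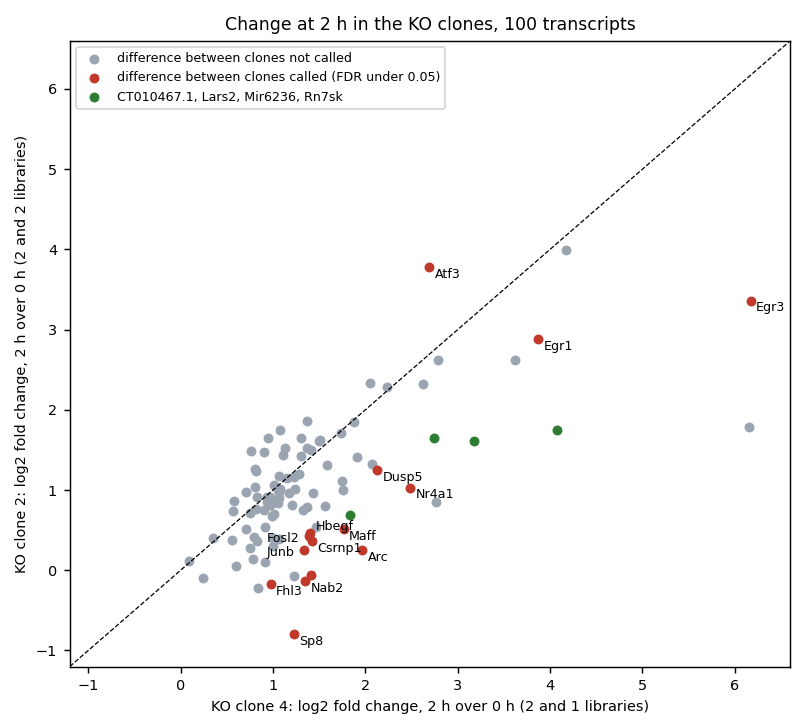
Log2 fold change at 2 h over 0 h in KO clone 2 (vertical) against KO clone 4 (horizontal) for the 100 transcripts, from edgeR; the dashed line marks equal change. Points of the 15 whose difference between clones was called are coloured, and most are named: 14 lie under the line and Atf3 above it.

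At 4 h, 84 members were higher than at 0 h in clone 2, where 20.3% of all genes were, and 3 were lower (Gem, 9130008F23Rik and Sp8), where 21.8% were; without the first 4 h library of clone 2, 1 was lower. In clone 4, 92 were higher, where 12% of all genes were, and none was lower, where 11.2% were (93 members had an unadjusted p under 0.05, and DESeq2 also called none lower). These comparisons with the 4 h libraries were added after the data had been seen. The low share of ribosomal protein transcripts in the 4 h libraries accompanies them, and its part in them was not tested.

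By 8 h most members had lost share again. Between 8 h and 2 h, 66 members fell in clone 2, where 13.2% of all genes did, and 2 rose, where 12.6% did. In clone 4, 64 fell, where 11.3% of all genes did, and 3 rose, where 9.1% did. In WT, 8 h was set against 4 h, which the choice of members did not use: 93 members fell, where 22.9% of all genes did, and none rose, where 22.4% did (93 members had an unadjusted p under 0.05, and DESeq2 also called none higher); without the first WT 4 h library 2 members rose. The median log2 fold change was -0.86 in clone 2, -0.62 in clone 4 and -1.09 in WT, against medians over all genes of -0.014 in clone 2, -0.020 in clone 4 and -0.0017 in WT.

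All 27 transcription factors and all 11 feedback inhibitors fell in WT between 4 and 8 h, as did all 16 ligands, receptors and matrix genes. Of all genes tested, 22.9% fell there. The 7 members not called there were Gem, Spin4, Irs4 and the 4 scattered transcripts. The most negative log2 fold change was that of Egr2, -4.49 ± 0.34, followed by Egr3 with -4.23 ± 0.20, Fosb with -3.52 ± 0.20, Atf3 with -3.49 ± 0.09 and Egr1 with -3.42 ± 0.10. At the other end, Klf7 had a log2 fold change of -0.33 ± 0.07 and Nptx2, a neuronal pentraxin, of -0.37 ± 0.10. The ribosomal protein share of the 4 h libraries lies beside this comparison too, and its part was not tested, whereas the clone comparisons of 8 h with 2 h use no 4 h library. In clone 2 the largest drops from 2 to 8 h were those of Egr2, Atf3, Egr1, Nppb and Dusp8, of which Dusp8 held 8.23 and 7.48 CPM at 8 h, against 58.9 and 56.3 CPM at 2 h. The 2 members that rose in clone 2 were Bmp2, by 0.74 ± 0.10, and Sp8, by 1.02 ± 0.20. In clone 4 Egr3 had a log2 fold change of -4.21 ± 0.22, while Egr4 was down to 2 counts in each 8 h library. The 3 that rose there were all extracellular or receptor genes: Nptx2, which held 43.9 and 43.8 CPM at 8 h, against 24.4 and 26.7 CPM at 2 h, Timp3, an inhibitor of matrix metalloproteinases, and Il6ra, an interleukin-6 receptor subunit.

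By 8 h the members had returned to their 0 h levels to different degrees. In clone 2, 17 were higher than at 0 h, where 12.6% of all genes were, and 19 were lower, where 15.8% were; leaving out either 8 h library of clone 2 left 12 lower, and 10 or 15 higher. In clone 4, 55 were higher, where 8.57% of all genes were, and 1, the zinc exporter gene Slc30a1, was lower, where 10.9% were; without the second 8 h library of clone 4 no member was called lower. These comparisons, too, were added after the data had been seen. In WT, 60 were higher and 8 lower at 8 h than at 0 h, given as a description since the WT 0 h libraries chose the members (25.7% and 25.4% of all genes); without the first or the second WT 0 h library 5 were lower. Feedback inhibitors were lower than at 0 h in 6 of 11 cases in clone 2, among them Dusp6 (log2 fold change -0.93 ± 0.11), and higher in 4 of 11 in clone 4. Lfng, a glycosyltransferase that modifies Notch, held 2.78 and 2.27 CPM at 8 h, against 0.824 and 0.742 CPM at 0 h, in clone 2, a log2 fold change of 1.70 ± 0.43. Ligands, receptors and matrix genes were higher at 8 h in 11 of 16 cases in clone 4, with Plaur, the urokinase receptor, at 129 and 143 CPM at 8 h, against 54.2 CPM at 0 h.

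At 8 h most members that differed from WT were lower in clone 2 and higher in clone 4. In clone 2, 60 members were lower than in WT, where 27% of all genes were, and 18 were higher, where 26.2% were. In clone 4, 47 members were higher than in WT, where 13.3% of all genes were, and 6 were lower, where 12.2% were. The 6 lower became 2 without the first 8 h library of clone 4, 3 without the second and 3 without the fourth WT 8 h library. The median log2 difference from WT was -0.80 in clone 2 and 0.32 in clone 4. The Caprin1 transcript was at the WT level in the libraries labelled KO clone 4, which does not show whether the protein was present. Both comparisons share the WT 8 h libraries. Itgb8, an integrin subunit, held 0.111 and 0.284 CPM in clone 2 and 6.71 and 8.22 CPM in clone 4, against 12, 16.4, 11.8 and 9.99 CPM in WT. Sox9, a factor of neural crest and cartilage, held 3.11 and 4.26 CPM in clone 2 and 35.0 and 32.5 CPM in clone 4, against 82.3, 81.2, 77.2 and 73.4 CPM in WT. Both were lower in each clone than in WT. The log2 difference of Itgb8 was -5.72 ± 0.39 in clone 2 and -0.71 ± 0.19 in clone 4. That of Sox9 was -4.25 ± 0.14 in clone 2 and -1.17 ± 0.10 in clone 4. Ptgs2 lay on opposite sides of WT. It held 20.1 and 27.3 CPM in clone 2 and 299 and 327 CPM in clone 4, against 45.2, 47.8, 37.5 and 51.8 CPM in WT. Its log2 difference from WT was -0.79 ± 0.16 in clone 2 and 2.82 ± 0.13 in clone 4. Rel, an NF-κB subunit, Spry2 and Bmp2 were the members most above WT in clone 2 (1.44 ± 0.15, 1.5 ± 0.09 and 1.85 ± 0.09). Some of these differences were there at 0 h, before α-amanitin. Bmp2 then held 60.6 and 61.1 CPM in clone 2, against 18.2 to 20.2 CPM in WT. Sox9 held 3.77 and 5.09 CPM in clone 2 and 25.0 CPM in clone 4, against 60.1 to 77.1 CPM in WT. Ptgs2 held 25.0 and 27.4 CPM in clone 2 and 142 CPM in clone 4, both above WT at 7.84 to 12.6 CPM. The part of the 0 h levels in the 8 h differences was not tested. The endoderm and neuroectoderm marker sums given at the outset differ between the same lines. Over the libraries of all 4 times, 20 fibroblast markers summed to between 1918 and 2341 CPM in clone 2. Their sum was between 8344 and 9519.9 CPM in clone 4 and between 3359.8 and 4719 CPM in WT. The part of all these marker sums in the 8 h differences was not tested.

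The 4 scattered transcripts are Mir6236, Lars2, CT010467.1 and Rn7sk, the small nuclear RNA that holds P-TEFb inactive. The Lars2 and CT010467.1 loci are known to collect reads from ribosomal RNA in mouse libraries, and so is the annotated Mir6236 hairpin. Whether they did so here was not tested. Their libraries moved together: pairwise Pearson correlations of log2 CPM over the 31 libraries ran between 0.912 and 0.982, a description in which all points share library and depth. Summed, they took 1.38% and 1.35% of the 2 h libraries of clone 2 and 1.68% and 2.02% of those of clone 4. In WT they took 1.45%, 1.19%, 0.210% and 0.144% of the libraries at 0 h, 3.06%, 1.83%, 1.88% and 2.55% at 2 h, 1.76%, 0.0825%, 0.0934% and 0.137% at 4 h and 1.32%, 1.71%, 0.186% and 0.129% at 8 h. Replicates of one WT group differed by as much as the times did, with replicates 1 and 2 above replicates 3 and 4 at 0 and 8 h and replicate 1 alone high at 4 h, while all 8 libraries at 2 h held over 1.3%. Replicates were also compared over the genes counted, by a chi-square per gene. At WT 0 h it was 3.4 for replicates 1 and 2, 2.7 for 3 and 4, and 17.0 to 37.1 across these pairs. At WT 8 h it was 1.8, 2.2 and 6.3 to 9.8. These values include the 4 scattered transcripts and grow with depth. None of the 4 was called by edgeR, with FDRs of 0.410 to 0.716 at 2 h in clone 2, where none had an unadjusted p under 0.05, and of 0.274 to 0.461 in clone 4, although their median log2 fold change at 2 h over 0 h was 1.63 in clone 2 and 2.96 in clone 4.

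**Figure D5:**
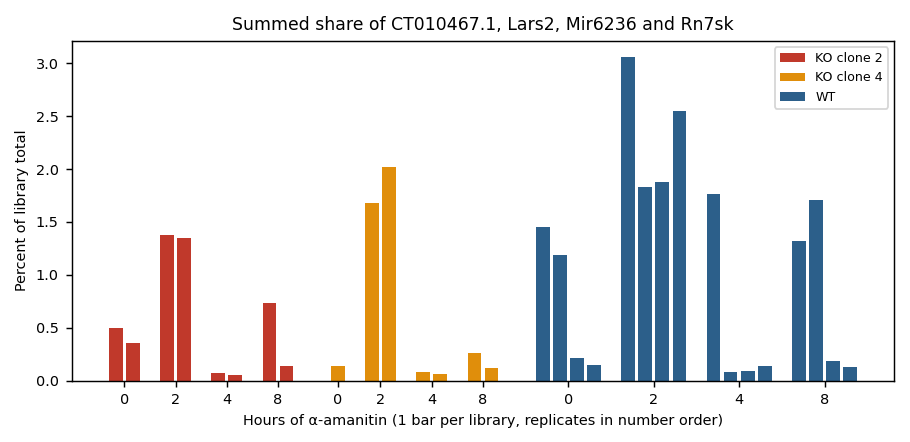
Share of each library total taken by CT010467.1, Lars2, Mir6236 and Rn7sk together, in percent, by hours of α-amanitin for KO clone 2, KO clone 4 and WT. All 8 libraries at 2 h stand high, and so do replicates 1 and 2 of WT at 0 and 8 h and replicate 1 of WT at 4 h.

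At the limit of the choice, members 98 to 100 were Irs4, Sp8 and Tnfaip3, with WT log2 ratios of 1.05, 1.05 and 1.04. The next genes, just outside it, were Utp14b, Nog and Dgke, with 1.04, 1.04 and 1.03.

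The authors also deposited lists of symbols from RNA immunoprecipitation of CAPRIN1, which give neither values nor direction. The list named CNT vs RA held 16 of the 100 members (0.737% of the list) and 18.9% of the 10407 genes that met the rule. The list named 2I vs RA held 15 members (0.599% of the list) and 20.6% of those genes. Both lists held Thbs1, Lor, Nr4a3, Sgk1, Bmp2, Enc1, Cdc42ep3, Phlda1 and Tnfaip3, which is 9 members, against 11.7% of the genes that met the rule.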

How the data were processed

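Poly(A) RNA was sequenced with a stranded kit on a NextSeq500, per the labels' protocols, and 31 libraries of 32 RNA-seq samples were analysed. The authors deposited gene counts, 1 table for each time, as raw counts with no normalization. STAR 2.4.0.1, FastQC 0.11.9, Cufflinks, Cuffdiff, TopHat and DESeq2 are named without a role, beside GRCm38 and mm10, per the submitters' processing notes. Which program counted reads, against which annotation and with which strand option, is not given in the sources used here, so overlapping and antisense genes cannot be told apart. The authors also deposited 2 lists of symbols, with no values. The first replicate of KO clone 4 at 0 h was not analysed here.

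Of 51520 rows, 110 repeats were dropped, which left 51410 genes. Totals ran between 3.46 M and 31.6 M counts, so a gene at 1 CPM rests on few counts in the shallowest libraries. One joint model over 12 line-by-time groups, with 19 residual degrees of freedom, was fitted in edgeR 4.0.16 (TMM, filterByExpr with a minimum count of 10, robust quasi-likelihood) under R 4.3.3. It tested 15850 genes, with Benjamini-Hochberg adjustment over all of them and a limit of 0.05. The code was tested on simulated data. DESeq2 1.42.0, other scalings, no filter, a replicate block, pooled clones and leaving out each library were tried as alternatives. Clone comparisons of 4 h and 8 h with 0 h were added after seeing the data.

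The members, roles and gene lists were chosen with earlier results of these data known. Genes were named by rank (first 20, and both sides of the limit), by the 5 largest called changes each way in each comparison, and by membership of a listed pathway. Some others (Klf7, Dusp8, Nptx2, Plaur, Rnd3 and Il6ra among them) were chosen to show a role after their values were seen. Results of some members are not reported here.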

Additional observations from a re-analysis of the deposited data

Results flagged for a closer look

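Among 84 WT groups of 4 libraries (the first 20 members and the summed scattered transcripts at each time), 7 had 1 library set apart from the other 3 by more than Dixon's critical share of the group's range; chance gives about 1 in 20. Egr1 at 2 h had a library at 186 CPM (gap ratio 0.985), Hbegf at 2 h one at 189 CPM (0.865) and Nppb, a natriuretic peptide gene, at 0 h one at 1.77 CPM (0.889). Fos at 4 h had a library at 16.8 CPM (0.86), Ankrd1 at 4 h one at 18.5 CPM (0.898) and Lfng, a Notch glycosyltransferase gene, at 8 h one at 4.07 CPM (0.851). The summed scattered transcripts at 4 h had a library at 1.76% of its total (0.968).

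The change at 2 h over 0 h differed between the clones for 15 members by edgeR's interaction test. The log2 difference, clone 2 minus clone 4, was -2.81 for Egr3, -2.02 for Sp8, -1.72 for Arc, -1.49 for Nab2 and -1.45 for Nr4a1. It was -1.25 for Maff, -1.15 for Fhl3, -1.08 for Junb, -1.06 for Csrnp1 and -0.99 for Egr1. It was -0.96 for Fosl2, -0.95 for Hbegf, -0.88 for Dusp5 and 1.09 for Atf3. All 15 rest on the single 0 h library of clone 4.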

How the results depend on the processing

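Pooling both clones as 1 KO group moved these counts of called members by over 1.5 times, beside counts of 3 or fewer: 58 higher at 2 h over 0 h, against 89 in clone 4 alone; 43 lower at 8 h over 2 h, against 66 in clone 2; 4 lower and 14 higher than WT at 8 h, against 60 lower in clone 2 and 47 higher in clone 4; and 2 lower and 18 higher at 8 h over 0 h, against 19 lower in clone 2 and 55 higher in clone 4. The same fit gave 29 members higher and 1 lower in WT at 8 h over 0 h, against 60 and 8. It also turned the sign of 14 single values, and the cause was not tested. Against WT at 8 h these became 0.15 for Nppb, 1.93 for Ptgs2, 1.05 for Ankrd1, 0.18 for Noct and 0.22 for Hbegf (clone 2 in the main fit), and -0.089 for Egr1, -0.17 for Fos, -0.050 for Bdnf and -0.20 for Dusp4 (clone 4). At 8 h over 0 h they became 0.078 for Egr1, 0.012 for Ankrd1, 0.27 for Fos, 0.30 for Dusp5 and 0.39 for Noct (clone 2). Leaving out 1 library gave 12 to 16 members lower at 8 h than at 0 h in clone 2, against 19. Without the only 0 h library of clone 4 no value could be had. Same-numbered replicates correlated, in their deviations from group means, between 0.0231 and 0.192 in clone 2 and between -0.0643 and 0.0324 in clone 4. In WT they correlated between -0.147 and 0.498. Not every pair was above 0.1, so numbers were not taken as pairs. With a replicate block 73 members rose at 2 h in clone 2 and 85 in clone 4. With that block 13 had a lower 2 h change in clone 2 than in clone 4. With library totals in place of TMM the median log2 difference of all genes shifted to -0.15 for clone 2 against WT at 8 h (-0.011 with TMM), where 12 members were higher and 68 lower, and to -0.20 for clone 2 at 4 h over 0 h (-0.062 with TMM). The 3 members that rose at 8 h over 2 h in clone 4 became 5 with library totals and 5 with the replicate block. The 1 member with a higher 2 h change in clone 2 than in clone 4 became 3 with no filter and 2 with DESeq2. The other counts of called members stayed within 1.5 times under the other scalings, the DESeq2 test, no filter and the block. Over all genes, calls of a higher 2 h change in clone 2 numbered 105 with DESeq2 and 80 with no filter, against 28. Calls of a lower one numbered 53 with DESeq2, against 33. Genes lower at 2 h in clone 2 numbered 1395 with library totals and 590 with DESeq2, against 921. In WT at 2 h library totals gave 1336 higher and 3912 lower, against 2227 and 2169. Of the 100 members, 84 stayed with 5 CPM added, 86 with a minimum of 10 CPM, 98 with TMM scaling and 93 to 98 without 1 WT library. Depth limits genes near 1 CPM, such as Egr4 and Egr2 at 0 h.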
